A study of Homo sapiens with 3 samples.

Results

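The genes described here encode the MCM helicase, CDC45 and GINS, the proteins that unwind DNA at replication forks. The set comprised 10 genes: MCM2, MCM3, MCM4, MCM5, MCM6, MCM7, CDC45, GINS1, GINS2 and MCM10. They were selected because replication genes were lower in U87WT than in U87Mut cells on these same arrays, so their clone ratios are a description and no test of them is given. Probes were matched by RefSeq accession, which gave 11 probes on 20 spots for 9 of the 10 genes, among 25006 genes named on the array. No probe was matched to MCM3, whose expression is not analysed here.

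The study asked how gene expression differs between U-87MG glioblastoma cells whose type 1 insulin-like growth factor receptor, IGF1R, can enter the nucleus and cells whose receptor cannot. U87WT 5 is a clone transfected with GFP-IGF1R, the receptor fused to green fluorescent protein, and U87Mut 5 is a clone transfected with GFP-IGF1R1025x-1100x-1120x, in which the lysines needed for SUMO attachment were replaced. Both were stable transfectants selected with G418 that also carry their own IGF1R, and each was represented by 1 clone, so clone and receptor cannot be told apart. RNA of both clones was hybridised together to 3 Agilent 2-color arrays, 1 for each culture condition, with U87WT in Cy5 and U87Mut in Cy3 on every array.

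The cells had grown to 80% confluence in complete medium. They were then kept for 24 h in FBS-free medium, in medium with 50 nM IGF1, or in medium with 50 nM IGF1 and OSI906, which inhibits IGF1R and also the insulin receptor. OSI906 is given at 0.5 µM in the sample name and at 500 µM in the label for the medium, and its preincubation as 24 h in the labels and 1 h in the methods of the study. Each condition was hybridised once and in 1 dye orientation, so dye and clone cannot be told apart. The labelled cell line was checked against its markers: VIM, CD44, TIMP1, TNC and NES were bright on all 3 arrays in both channels, that is, marked by the scanner software as well above background. Of 4 astrocytic markers only OLIG2 was, while GFAP and SOX2 were bright on no array. Of 5 markers of other cell types, RBFOX3, PTPRC and EPCAM were bright throughout, and their part in the results was not tested.

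A ring of MCM2, MCM3, MCM4, MCM5, MCM6 and MCM7 is loaded around DNA at origins before S phase. CDC45 and the GINS complex, made of GINS1, GINS2, GINS3 and GINS4, join the ring at the start of S phase and turn it into the active CMG helicase, and MCM10 is needed for that helicase to start unwinding. Transcription of these genes rises towards S phase, and the E2F factors, held in check by the pocket proteins, are known activators of it; in quiescent cells the levels are low.

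Promoter sequence is shown as background. The shared direction of the members came with their selection and is not read as a result about their promoters. The 250 bases before the start are printed 5′ to 3′ for the measured members that have a single start in the table and no annotated gene over the stretch, from RefSeq on GRCh38.p14, with capitals marking E2F words and CCAAT on either strand. They are MCM6 (chr2:135876444-135876693, minus strand), GINS2 (chr16:85688955-85689204, minus strand) and MCM10 (chr10:13161308-13161557, plus strand).
MCM6: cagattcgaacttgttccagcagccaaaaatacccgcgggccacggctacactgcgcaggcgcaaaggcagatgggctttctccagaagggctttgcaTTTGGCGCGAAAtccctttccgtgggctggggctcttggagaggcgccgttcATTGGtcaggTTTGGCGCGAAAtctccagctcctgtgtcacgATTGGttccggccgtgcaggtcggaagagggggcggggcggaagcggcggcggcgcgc
GINS2: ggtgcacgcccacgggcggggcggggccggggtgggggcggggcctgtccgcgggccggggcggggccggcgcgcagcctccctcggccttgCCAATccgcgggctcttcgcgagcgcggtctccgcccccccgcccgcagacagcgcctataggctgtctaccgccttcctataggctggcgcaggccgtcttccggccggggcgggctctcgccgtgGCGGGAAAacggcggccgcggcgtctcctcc
MCM10: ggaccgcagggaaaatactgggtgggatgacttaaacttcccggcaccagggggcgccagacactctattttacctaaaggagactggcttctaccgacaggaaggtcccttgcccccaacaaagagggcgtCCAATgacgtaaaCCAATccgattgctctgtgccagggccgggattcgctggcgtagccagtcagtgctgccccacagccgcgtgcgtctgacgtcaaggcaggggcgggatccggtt

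The words searched were TTTCCCGC, TTTGGCGC, TTTCGCGC and TTTGCCGC for E2F and CCAAT for the box of that name, on both strands. In MCM6, 4 E2F words began at -152, -148, -90 and -86 from the start, where a forward TTTGGCGC overlapped a reverse TTTCGCGC in each pair, and CCAAT began at -100 and -58. In GINS2, 1 E2F word began at -31 and 1 CCAAT at -158. In MCM10, CCAAT began at -118 and -105, and none of the 4 E2F words was in the stretch.

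In windows reaching from 250 bases before the start to 50 after it, an E2F word was present in 6 of 12 windows of the members (50%) and CCAAT in 10 of 12 (83.3%), where 1 gene can have several windows. Of all 35116 promoters, 3.31% held an E2F word and 34.6% held CCAAT, and of 73 windows of other replication genes the shares were 30.1% and 43.8%. The windows of the members were those of MCM2, MCM6, MCM7, MCM10, GINS1, GINS2 and CDC45, and of MCM3, which was read for its sequence alone. A match describes letters in a window, and its absence says nothing about the factor.

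All 11 probes of the 9 measured members lay lower in U87WT than in U87Mut on each of the 3 arrays, and over the 3 arrays the levels of the clones did not overlap for any of the 11, as for 14.2% of all named probes in that direction. Each member had a log2 ratio of U87WT over U87Mut below -0.5 on every array (9 of 9), and the medians were -1.56 in FBS-free medium, -1.45 with IGF1 and -1.35 with IGF1 plus OSI906. Shares of all named genes below -0.5 were 3.77%, 2.93% and 3.48% on the same arrays, and 1.48% on all 3 together. The medians of all genes lay at -0.00, 0.01 and -0.00. Because the members were selected on this contrast, nothing is read from these counts. Fewer cycling cells and less of these RNAs per cell cannot be told apart in bulk RNA.

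**Figure D1:**
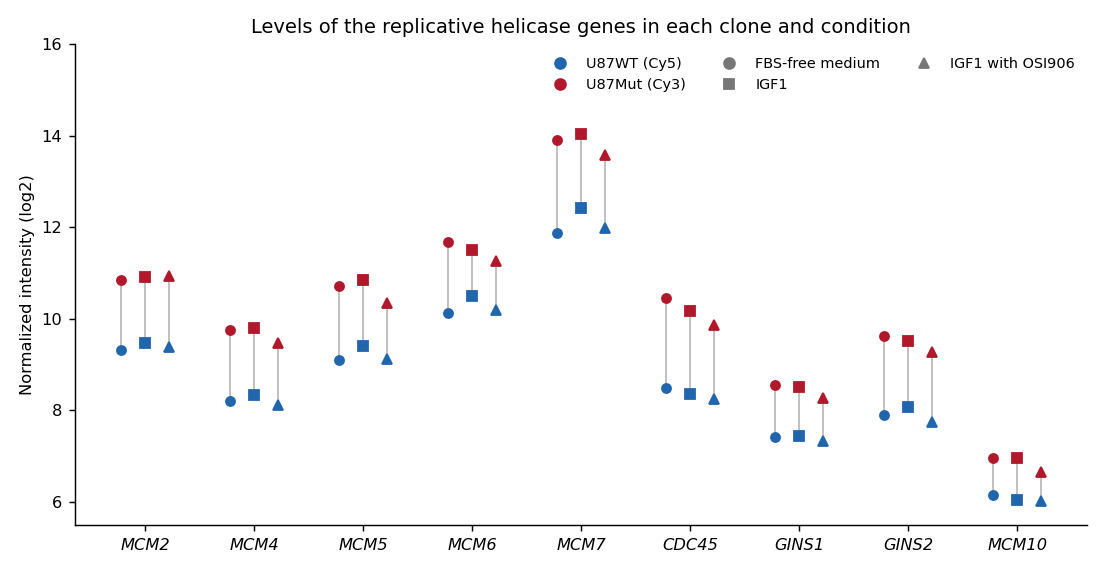
Normalised log2 level (vertical axis) of each of the 9 measured members (horizontal axis), by its brightest probe, in U87WT and U87Mut, with 1 point per array, so 3 points per clone. For all 9 members the 3 U87WT points sit below the 3 U87Mut points, and levels of different probes are not to be compared.

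Levels below are log2 normalised intensities, given in the order FBS-free medium, IGF1, and IGF1 with OSI906, for the brightest probe of a gene. The SD beside a mean ratio is over these 3 arrays, each a different condition. On every array all 11 probes were well above background in Cy5 and in Cy3, and none was saturated.

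Of the ring subunits, MCM7 had the largest clone difference. Its level in U87WT was 11.88, 12.41 and 11.97, and in U87Mut it was 13.90, 14.03 and 13.58. The highest value of U87WT lay below the lowest of U87Mut, with log2 ratios of -2.02, -1.62 and -1.61. The mean was -1.75 ± 0.23 (SD, n = 3 arrays), which is 3.36-fold more signal in U87Mut. A second, dimmer MCM7 probe read 6.85, 6.83 and 6.78 in U87WT and 7.78, 7.83 and 7.98 in U87Mut, with a mean ratio of -1.04 ± 0.14 (SD, n = 3 arrays). The dimmer probe had the same direction on each array and a smaller ratio, and its FBS-free ratio of -0.93 was the least negative of its 3, whereas that of the brighter probe was the most negative.

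MCM2, the subunit that also binds histones H3 and H4, stood at 9.33, 9.48 and 9.39 in U87WT and at 10.84, 10.92 and 10.93 in U87Mut. These values barely moved between the conditions in either clone. The log2 ratios were -1.51, -1.45 and -1.55, with a mean of -1.50 ± 0.05 (SD, n = 3 arrays), or 2.83-fold. Its SD was the smallest among the 9 members.

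MCM4, which forms a tight core with MCM6 and MCM7, stood at 8.22, 8.34 and 8.13 in U87WT and at 9.75, 9.79 and 9.47 in U87Mut. U87Mut was lowest with IGF1 plus OSI906. The ratios were -1.54, -1.45 and -1.35, with a mean of -1.45 ± 0.09 (SD, n = 3 arrays), or 2.72-fold. MCM5, which forms with MCM2 the gate through which the ring opens, had 2 probes that gave like ratios. The brighter one read 9.09, 9.41 and 9.12 in U87WT and 10.71, 10.85 and 10.35 in U87Mut, for ratios of -1.62, -1.44 and -1.24 and a mean of -1.43 ± 0.19 (SD, n = 3 arrays). The dimmer one gave ratios of -1.61, -1.41 and -1.39, with a mean of -1.47 ± 0.12 (SD, n = 3 arrays). On both MCM5 probes the clones lay farthest apart in FBS-free medium.

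MCM6 had the ratio that varied most between the conditions, by the SD over the arrays. Its level was 10.13, 10.50 and 10.19 in U87WT and 11.68, 11.49 and 11.26 in U87Mut. The ratio was -1.56 in FBS-free medium, and -0.99 and -1.07 on the arrays with IGF1, for a mean of -1.21 ± 0.31 (SD, n = 3 arrays). In folds, the signal of U87Mut was 2.95, 1.99 and 2.11 times that of U87WT on these arrays.

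CDC45, the protein that joins the ring when origins fire, had the most negative mean ratio of the 9 members. Its level was 8.49, 8.36 and 8.26 in U87WT and 10.46, 10.18 and 9.86 in U87Mut, so both clones were highest in FBS-free medium. The ratios were -1.97, -1.82 and -1.60, with a mean of -1.80 ± 0.19 (SD, n = 3 arrays), or 3.48-fold. As scanned, before any correction, its spot gave 349, 334 and 261 units in Cy5 and 1572, 894 and 826 in Cy3.

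GINS2 was printed on 10 spots of each array, which gives the only spot-to-spot error among the members. Its level was 7.90, 8.08 and 7.75 in U87WT and 9.62, 9.53 and 9.28 in U87Mut, and the mean ratio was -1.56 ± 0.14 (SD, n = 3 arrays), or 2.95-fold. Spots marked as outliers were left out, so 8, 9 and 10 spots were used. Over them the ratio ran from -1.79 to -1.61 in FBS-free medium, from -1.58 to -1.29 with IGF1 and from -1.70 to -1.41 with IGF1 plus OSI906. Every spot used was therefore lower in U87WT, and the spots in FBS-free medium did not overlap those after IGF1. Spots of 1 array share their RNA and labelling, so this spread is technical.

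GINS1, another subunit of the complex, stood at 7.43, 7.44 and 7.33 in U87WT and at 8.55, 8.51 and 8.28 in U87Mut, for ratios of -1.12, -1.07 and -0.94 and a mean of -1.04 ± 0.09 (SD, n = 3 arrays). MCM10 stood at 6.15, 6.05 and 6.03 in U87WT and at 6.97, 6.97 and 6.66 in U87Mut, for ratios of -0.82, -0.91 and -0.63 and a mean of -0.79 ± 0.14 (SD, n = 3 arrays). MCM10 was the dimmest member: it scanned at 34, 34.5 and 32 units in Cy5 over a local background of 20, 21 and 20.5. Its size therefore hung on the background treatment, and over 9 alternatives its mean ran from -2.60 to -0.51. On the IGF1 array its ratio was -0.91 here but -0.14 in the deposited table.

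**Figure D2:**
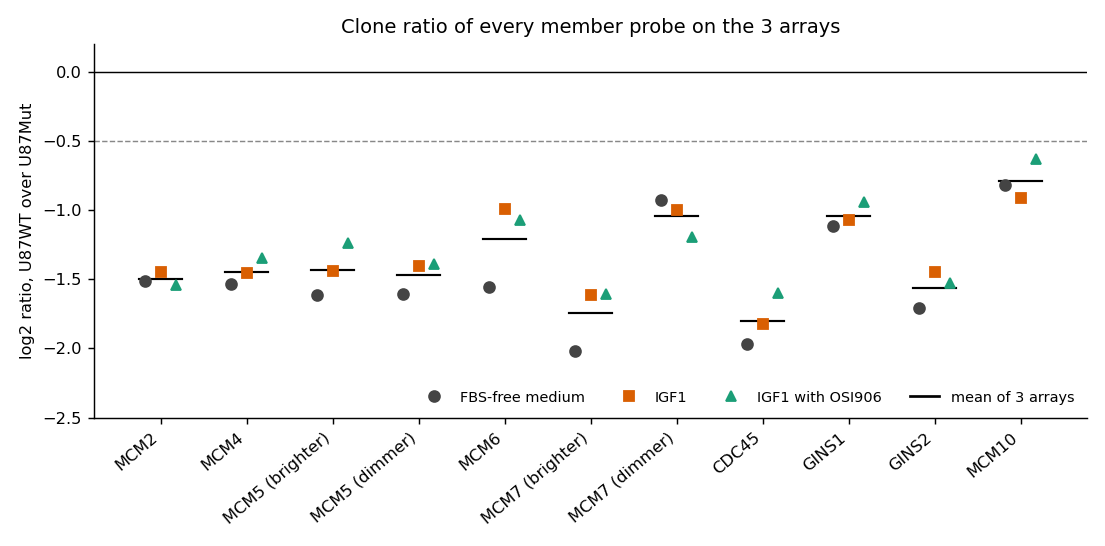
Log2 ratio of U87WT over U87Mut (vertical axis) for each of the 11 member probes (horizontal axis), with 1 point per array and a bar at the mean of the 3 arrays. All points lie below the dashed line at -0.5, from -2.02 for the brighter MCM7 probe to -0.63 for MCM10.

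In order of mean ratio the members ran CDC45, MCM7, GINS2, MCM2, MCM4, MCM5, MCM6, GINS1 and MCM10. The SD of a single ratio, estimated from the differences between the arrays of FBS-free medium and of IGF1 with OSI906 and so with the treatment in it, was 0.14, so CDC45 did not differ from MCM7 beyond it, nor did GINS2, MCM2, MCM4 and MCM5 among themselves. The IGF1 array was noisier: repeated spots of a probe had an SD of 0.18 there, against 0.052 and 0.056. The clone ratio was more negative in FBS-free medium than after IGF1 in 8 of 9 members, with MCM10 as the exception, and than after IGF1 with OSI906 in 8 of 9, with MCM2 as the exception. Of all genes, 54.7% and 49.2% had a more negative ratio in FBS-free medium by these comparisons. The shift from FBS-free medium to IGF1 was 0.57 in MCM6, 0.40 in MCM7 and 0.26 in GINS2, and at most 0.17 in the others. Sizes and order hung on the background fit: in the deposited table, whose IGF1 column has a Pearson correlation of 0.597 with the ratios used here, the shift was 0.96 in MCM10, 0.72 in GINS2, 0.70 in GINS1, 0.63 in MCM7 and 0.35 in MCM6, and MCM2 at -0.04 was the exception. With 1 array per condition these shifts have no test.

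Changes between conditions within a clone did not enter the selection of the genes, though each clone's level did. They come from the single-channel levels of 2 arrays without replicates, so they are given by size alone. Over all probes well above background, the SD of such a difference was 0.27 in U87WT and 0.22 in U87Mut for IGF1 against FBS-free medium, and 0.31 and 0.23 for IGF1 with OSI906 against IGF1.

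After IGF1, U87WT cells held 7 of 9 members higher than in FBS-free medium, with a median of 0.15 on the log2 scale. Of all genes, 50.8% were higher. The differences were 0.54 in MCM7, 0.37 in MCM6, 0.31 in MCM5, 0.18 in GINS2, 0.15 in MCM2, 0.12 in MCM4 and 0.01 in GINS1, against -0.09 in MCM10 and -0.14 in CDC45. The larger values were those of ring subunits, and MCM7 alone was past 0.5, as were 1.51% of all genes upwards and 1.76% downwards. Only MCM7, MCM6 and MCM5 exceeded 1 SD of such a difference, and the dimmer MCM7 probe had -0.02 where the dimmer MCM5 probe had 0.32. The median changed sign, to -0.07, when the arrays were not normalised to each other, and was 0.58 when the background was fitted on all spots, including a patch of 27 spots with a bright Cy5 background on the IGF1 array.

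In U87Mut cells the same comparison had a median of 0.00, with 5 of 9 members higher, where 45.2% of all genes were higher. MCM7 and MCM5 differed by 0.14, MCM2 by 0.08, MCM4 by 0.04 and MCM10 by 0.00, while GINS1 differed by -0.04, GINS2 by -0.09, MCM6 by -0.19 and CDC45 by -0.28. CDC45 alone was past 1 SD of such a difference, and none of the 9 was past 0.5, against 0.568% of genes upwards and 1.03% downwards.

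With OSI906 added to IGF1, all 9 members were lower than with IGF1 alone in U87WT, by a median of -0.22, where 52.4% of all genes were lower. The differences were -0.44 in MCM7, -0.33 in GINS2, -0.31 in MCM6, -0.29 in MCM5, -0.22 in MCM4, -0.11 in GINS1, -0.10 in CDC45, -0.09 in MCM2 and -0.03 in MCM10. The dimmer probes had smaller differences, -0.05 for MCM7 and -0.13 for MCM5. None was past 0.5, against 2.31% of genes upwards and 2.47% downwards. The median was -0.63 with the background fitted on all spots and -0.38 with median in place of loess. This comparison shares the IGF1 array with the one before it, so a value that is high on that array alone enters both with opposite sign.

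In U87Mut, 8 of 9 members were lower with OSI906 than with IGF1 alone, with a median of -0.31, where 46.9% of all genes were lower. The differences were -0.50 in MCM5, -0.45 in MCM7, -0.32 in MCM4 and CDC45, -0.31 in MCM10, -0.24 in GINS1 and GINS2, -0.23 in MCM6 and 0.01 in MCM2. None was past 0.5, against 1.27% of genes upwards and 0.644% downwards. The median was -0.15 with median in place of loess. The dimmer MCM7 probe had 0.15, and the dimmer MCM5 probe had -0.15 where the brighter one had -0.50. By the brightest probe, U87Mut held its lowest level after IGF1 with OSI906 in 8 of 9 members, MCM2 being the exception. This count rests partly on the comparison just given and has no share of all genes beside it, so nothing is read from it. The dimmer MCM7 probe had its highest U87Mut level there, at 7.98. Against FBS-free medium, the difference was -0.60 for CDC45 and -0.42 for MCM6 in U87Mut, and -0.23 and 0.06 in U87WT.

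**Figure D3:**
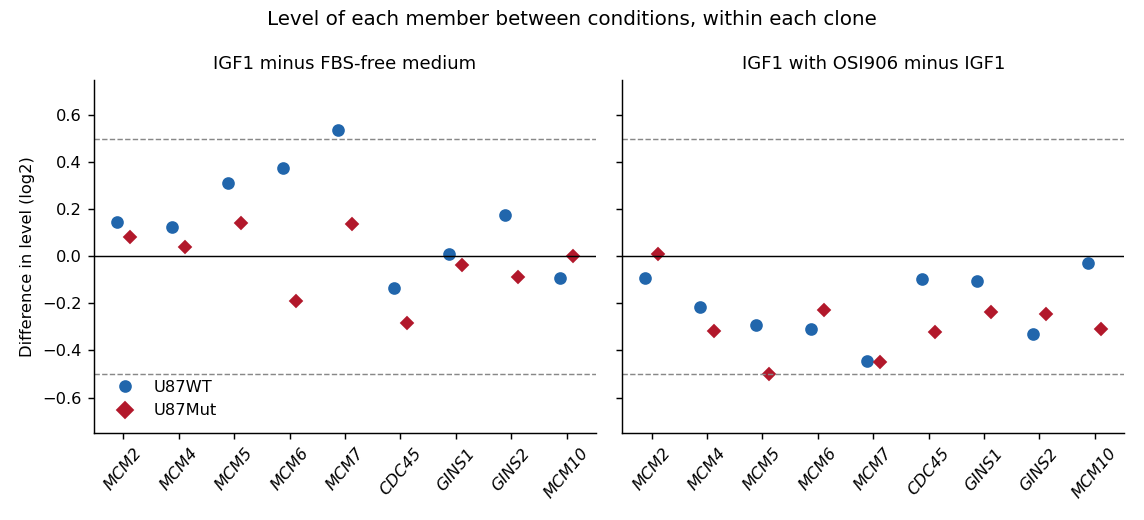
Difference in log2 level between conditions (vertical axis) of each of the 9 measured members (horizontal axis), IGF1 minus FBS-free medium on the left and IGF1 with OSI906 minus IGF1 on the right, with 1 point per clone. On the right the points lie below 0 in all members but MCM2 of U87Mut, and on the left they lie on both sides of 0.

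The genes around the helicase were read from lists of replication genes outside the members. Since the lower level of replication genes in U87WT led to the choice of the members, these lists are a description of the same contrast and no independent evidence. Of 65 such genes with a probe, 31 were below -0.5 on all 3 arrays, and their median ratio was -0.59, against -1.45 for the members. A limma fit over the 3 arrays on the whole table, with Benjamini-Hochberg adjustment over all probes, placed 49 of them past the threshold as lower in U87WT and 1 as higher, where 6.65% of all genes were placed lower and 7.00% higher. The 3 arrays are 3 conditions of a single pair of clones, so the fit measures the spread between conditions. The count of 49 was not stable: it was 16 with the background fitted on all spots, 0 with median in place of loess or with the signals of the scanner software, 27 without the array of FBS-free medium and 13 without that of IGF1 with OSI906.

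GINS3 and GINS4 are the subunits that complete the GINS complex, and for each the levels of U87WT lay below all levels of U87Mut. GINS4 stood at 8.21, 8.45 and 8.26 in U87WT and at 9.58, 9.55 and 9.29 in U87Mut, with a mean ratio of -1.17 ± 0.19 (SD, n = 3 arrays). GINS3 stood at 9.26, 9.17 and 9.06 in U87WT and at 10.33, 10.34 and 10.25 in U87Mut, with a mean ratio of -1.14 ± 0.06 (SD, n = 3 arrays). All 4 GINS subunits were between -1.56 and -1.04 in mean ratio. Of the other MCM genes, MCMBP, which binds MCM subunits outside chromatin, had a mean ratio of -0.59, MCM8 -0.48, MCM9 -0.26 and MCM3AP, whose product works in mRNA export, 0.17.

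Upstream of the helicase, 6 of 17 genes of origin licensing and firing were below -0.5 on all 3 arrays, against 1.48% of all genes. The limma fit placed 11 of them past its threshold as lower and 0 as higher, against 6.65% and 7.00% of all genes. With median in place of loess or with scanner signals, no probe of any gene was placed past it. CDT1, which brings the ring to the origin, had a mean ratio of -1.66, ORC6, a subunit of the origin recognition complex, -1.48, and GMNN, the inhibitor of CDT1, -1.10. ORC2 and ORC4, subunits of the same complex as ORC6, had -0.03 and -0.11.

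Downstream, 15 of 21 genes of the fork and the lagging strand and 4 of 12 genes of the replicative polymerases and primase were below -0.5 on all 3 arrays. The limma fit placed 18 and 10 past its threshold as lower. The shares of all genes were 1.48% below -0.5 on all 3 arrays, 6.65% placed lower and 7.00% placed higher. All placements in this paragraph were lost with median in place of loess or with scanner signals. RFC4, a subunit of the clamp loader, had -1.19, CHAF1A, a histone chaperone at the fork, -1.16, and PRIM1, the primase, -1.09. POLD4, a small subunit of polymerase delta, was the only one of the 65 genes placed higher, at 0.35, a call lost with the background fitted on all spots, at an offset of 0, without background correction, with median in place of loess and with scanner signals. Of the nucleotide supply, 3 of 9 genes were below -0.5 on all 3 arrays and 5 were placed lower and 0 higher, with TK1 at -1.08 and TYMS, which makes thymidylate, at -0.96.

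Among E2F and pocket protein genes, 5 of 13 were called lower and 0 higher by limma, where 6.65% of all genes were called lower and 7.00% higher. With median in place of loess or with scanner signals, no probe of any gene was called, so the calls in this paragraph were lost. The activators E2F2 and E2F1 had -1.54 and -0.88 and the pocket protein RBL1 -0.82. E2F3, from the same list, had 0.14 and was not called (adjusted p = 0.090 by limma). RBL2, the pocket protein typical of quiescent cells, had 0.22 and was not called (adjusted p = 0.17 by limma). Of mitosis genes 12 of 16 were called lower and 0 higher, among them BUB1B at -1.18, CCNB2 at -0.93 and CDK1 at -0.83. MKI67 and TOP2A, markers of dividing cells named after their values were seen, were not called (adjusted p = 0.35 and 0.66 by limma). Their ratios changed sign between the arrays, with 0.01, -0.77 and -0.20 for MKI67 and -0.80, 0.74 and -1.04 for TOP2A. Of 7 cell cycle inhibitors, of which 5 were well above background in both channels on every array, 0 were called lower. CDKN2A alone was called higher, at 0.36 (adjusted p = 0.018 by limma), and what its probe reads in this line was not tested. The mean ratios of the 7 ran from -0.21 in CDKN2D to that of CDKN2A. The part of the share of dividing cells in the ratios of the members was not tested. IGF1R, the transfected gene, had ratios of 0.07, 0.23 and 0.09, and whether its probe reads the transfected sequence is unknown here.

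**Figure D4:**
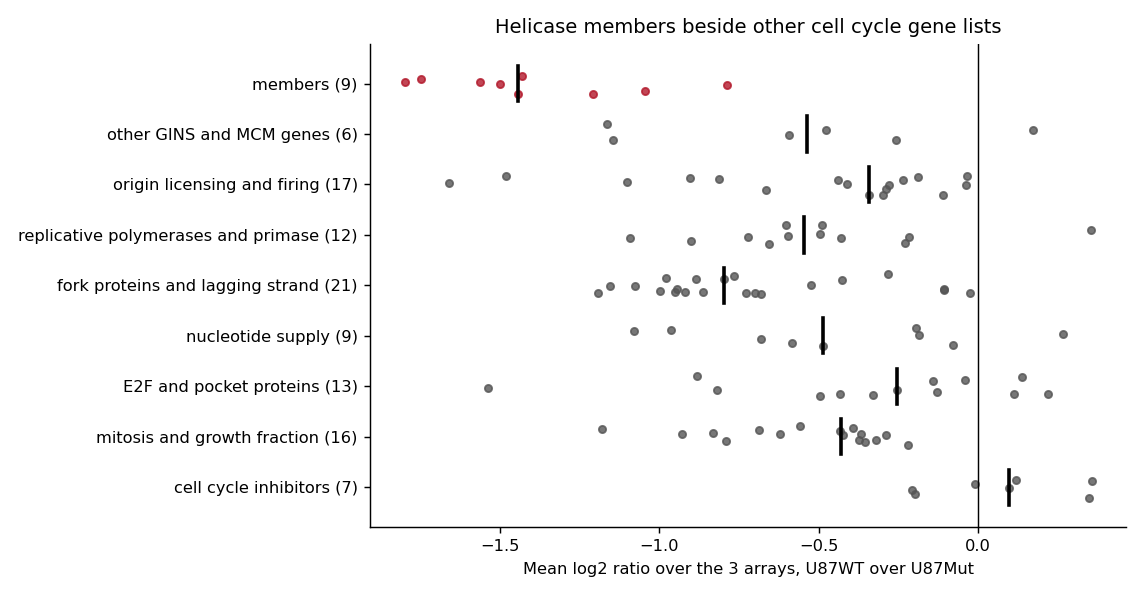
Mean log2 ratio of U87WT over U87Mut over 3 arrays (horizontal axis) for each gene, by list (vertical axis, with the number of genes), with a bar at the median of a list. The members lie between -1.80 and -0.79, the other replication lists reach from values near those to values around 0, and the cell cycle inhibitors lie around 0.

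The shape of the members' profile was set against every gene well above background on all arrays, over the 6 levels of 2 clones on 3 arrays, each gene centred on its mean. Of 15341 genes, 528 had a Pearson correlation above 0.95 with the mean profile of the members, which is mostly the difference between 2 clones, and no test is attached. The 10 closest outside the members were ORC6 (r = 0.999), WDHD1, GINS4, RFC4, E2F1, LYAR, CHAF1A, TEDC2, OVOS2P and ZWINT (r = 0.997). That profile stood at -0.73, -0.57 and -0.78 in U87WT and at 0.81, 0.78 and 0.50 in U87Mut around the mean of each gene.

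**Figure D5:**
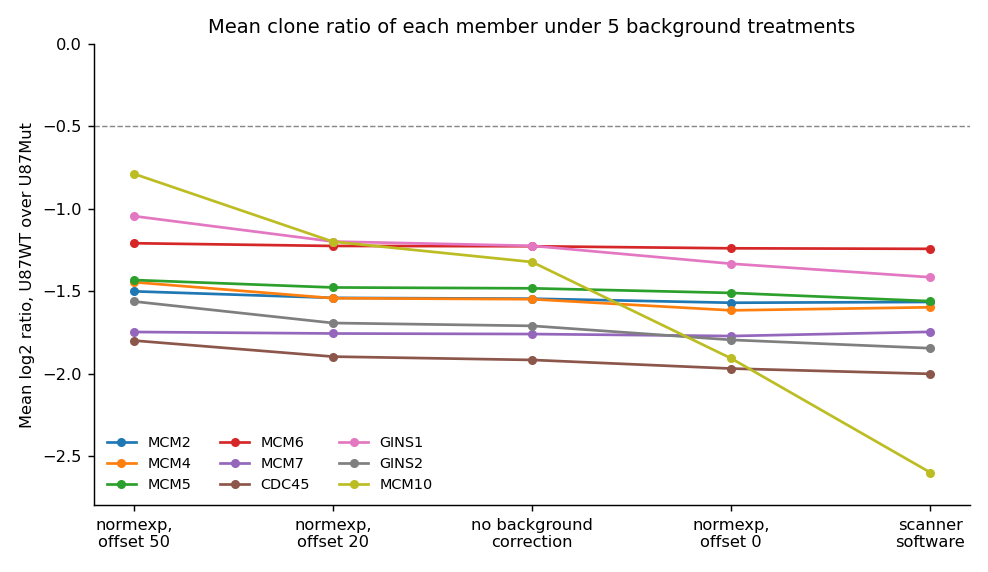
Mean log2 ratio of U87WT over U87Mut (vertical axis) of each of the 9 measured members under 5 treatments of the spot background (horizontal axis), with lines joining the values of 1 gene. MCM10, the dimmest, runs from -2.60 to -0.79, while MCM7, the brightest, runs from -1.77 to -1.75. The background fitted on all spots is not drawn and gave -0.51 for MCM10 and -1.69 for MCM7.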

How the data were processed

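RNA of U87WT 5 (Cy5) and U87Mut 5 (Cy3) was compared on 3 arrays, 1 per condition, so no value has a replicate. The authors deposited the scanner output, per the file headers made with Agilent Feature Extraction 12.0.3.1: raw spot and background intensity of each channel and intensities processed by the scanner software. They also deposited log2 ratios made with limma, which match those from normexp (offset 20, all spots) followed by loess, within 0.0001 for 58341 of 58341 probes on each array. The columns of that table have medians of -0.007, -0.007 and -0.003.

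The software was limma 3.58.1 under R 4.3.3, with data.table (version 1.17.8) for reading. For the main values, normexp (offset 50) was applied to median spot intensities and fitted without the 384, 572 and 5 spots marked as not uniform on the arrays of FBS-free medium, IGF1, and IGF1 with OSI906. The IGF1 array held a patch of 27 spots with a bright Cy5 background. Loess within arrays and Aquantile between arrays followed, with 2075 control spots left out. Spots whose own signal was flagged as not uniform or as outlying (95, 117 and 95) were left out of the probe averages. Spots flagged only for their background were kept there. Spots of 1 probe were averaged to 58201 probes. Names came from RefSeq (GRCh38.p14) by accession for 34892 of 36770 probes with one. A gene was read by its brightest probe, a value past 0.5 in size was called by size, and non-members were fitted for a mean ratio different from 0 over the arrays (limma's lmFit and eBayes, with Benjamini-Hochberg adjustment at 5%). In simulated arrays, 200 of 200 changed probes were called with 7 others among 58201, and a true change of 1 was read as -0.883 in lowered probes. The changed probes there were drawn from brighter ones, with noise of equal size on each array, no treatment effect and no outlier flags. The real arrays differ in this, so the simulation cannot bear on dim probes such as that of MCM10 or on the stability of the calls. All 3 arrays lie on 1 slide and 1 scan.

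The members and lists were chosen with earlier results of these data known. Besides the cell markers, the genes named by rule were all members, GINS3, GINS4, IGF1R, at most the 4 lowest and 2 highest genes of each list among probes well above background, and the 10 closest profiles. MKI67 and TOP2A lay outside this rule and were named after their values were seen. The number of arrays limits the precision. Of all probes, 47.6% were well above background in each channel of each array. Alternatives covered the background correction, normalization, scanner signals, probe choice, limit of a call, deposited ratios and leaving out each array. One marker of the cell line is not reported here.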

Additional observations from a re-analysis of the deposited data

Results flagged for a closer look

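Members whose level moved in opposite directions in the 2 clones between the same 2 arrays are given here. Each clone had 1 sample per condition, and the differences were not tested. From FBS-free medium to IGF1, MCM6 moved by 0.37 in U87WT and by -0.19 in U87Mut, a difference of 0.57 on the log2 scale. GINS2 moved by 0.18 and -0.09, a difference of 0.26. GINS1 moved by 0.01 and -0.04, a difference of 0.044, and MCM10 by -0.09 and 0.00, a difference of -0.094. From IGF1 to IGF1 with OSI906, MCM2 moved by -0.09 in U87WT and by 0.01 in U87Mut, a difference of -0.10.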

How the results depend on the processing

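Over 14 alternatives each, 9 members were called lower in FBS-free medium and with IGF1 plus OSI906, except at a limit of 1, with 8 and 7. With IGF1 the number was 7 with the background fitted on all spots and 8 in the deposited table. It was also 7 there at a limit of 1, and 9 otherwise. All 81 alternative means of single members were below -0.5. The median ratio of the members, -1.45, ran from -1.62 to -1.40 over 15 alternatives, with -1.62 at a normexp offset of 0 and -1.60 with scanner signals. The median difference after IGF1 was 0.58 in U87WT with the background fitted on all spots, and 0.48 in U87WT and -0.28 in U87Mut with median in place of loess. Without normalization between arrays it was -0.07 and -0.18. The median difference of OSI906 was -0.63 in U87WT with the background fitted on all spots, and -0.38 in U87WT and -0.15 in U87Mut with median in place of loess.

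Of the 49 replication genes outside the members called lower, the count was 16 with the background fitted on all spots, 17 at an offset of 0, 25 in the deposited table, and 0 with median in place of loess or scanner signals, where 41 and 50 genes had an unadjusted limma p under 0.05 and no probe was called either way. Leaving out 1 array gave 13 to 46 calls, with 13 without the array of IGF1 with OSI906 and 27 without that of FBS-free medium, while 50 to 58 had an unadjusted p under 0.05. Over all probes, 2414 were called lower and 2491 higher, against 516 and 153 with the background fitted on all spots and 177 and 275 at an offset of 0. Scanner signals moved the median of all probes to -0.11, -0.12 and -0.07. The cause of these differences was not tested. No paired analysis was possible because the conditions share only 1 replicate number; the clones themselves were compared within each array, as pairs. Signal near background limits the size given for MCM10.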
